A study of Drosophila melanogaster with 18 samples.

Results

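The genes described here are mag, Acox57D-p, Desat1 and CG9747, 4 genes of fatty acid metabolism in Drosophila melanogaster, chosen by symbol as the probes whose only annotated gene is one of them. Each had 1 probe with a value in all 18 columns, so the genes account for 4 of the 5620 probes and 4 of the 4144 named genes tested. The experiment set total RNA of flies switched to banana against total RNA of flies on cornmeal, the control diet, on spotted arrays that read both RNAs at once. There were 6 slides with 3 sets of replicate spots each, in 3 dye-flip pairs: slides 2 and 3 (pair 1), slides 30 and 29 (pair 2) and slides 28 and 25 (pair 3), with the banana RNA in channel 1 on the first slide of each pair and the cornmeal RNA in channel 1 on the other. The labels name no strain, sex, age, stage, tissue or time on the diet, and nothing in them ties a flip pair to its own culture of flies. P-values of a mean ratio rest on the variation among the 3 pairs and those of a difference between pairs on the variation between the slides of a pair, and both could be technical.

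Animals break dietary fat down with lipases, shorten very long or branched fatty acids in peroxisomes and make unsaturated fatty acids with desaturases. mag, also called magro, encodes a lipase of the acid lipase family that acts in the fly gut on triglycerides and cholesterol esters. Acox57D-p encodes an acyl-CoA oxidase, the type of enzyme that opens peroxisomal beta-oxidation. Desat1 encodes the fly's main acyl-CoA desaturase, needed for membrane lipids and for the precursors of cuticular hydrocarbons, and CG9747 encodes a predicted desaturase of the same family.

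The direction of the deposited ratios is not settled, because the labels do not say whether channel 1 or channel 2 is the numerator. Values from slides that carried cornmeal RNA in channel 1 were multiplied by -1. This gives every slide one sense, provided the deposited values had not already been turned. In that sense a positive value stands for more transcript on banana than on cornmeal if channel 1 is the numerator, and for less on banana than on cornmeal if channel 2 is. In the deposited sign, slides of a flip pair correlated at Pearson's r of -0.205 in pair 1, -0.382 in pair 2 and -0.0865 in pair 3 over 4723 rows, which share the probes and, within a pair, the flip. The slides with banana RNA in channel 1 correlated at -0.111 for slides 2 and 28, 0.0523 for slides 2 and 30 and 0.187 for slides 30 and 28. Those with cornmeal RNA in channel 1 correlated at -0.0237 for slides 3 and 25, 0.212 for slides 3 and 29 and 0.274 for slides 29 and 25. Slides of different pairs and opposite orientation correlated between -0.0918 (slides 3 and 30) and 0.191 (slides 2 and 25). A column held values for 4860 to 5149 probes, and column medians ran from -0.688 to 0.354. Columns of one slide correlated at 0.316 to 0.6.

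mag and Acox57D-p had positive ratios in all 3 pairs and Desat1 had negative ones, while CG9747 was positive in pairs 1 and 2 and negative in pair 3. In bulk RNA, fewer cells of a type and less RNA per cell cannot be told apart. Over all 6 slides the sign was the same for 3 of the 4 genes and for 6.65% of all rows tested (3.96% positive, as for mag and Acox57D-p, and 2.69% negative, as for Desat1). Over the 3 pairs it was the same for those 3 genes and for 30.5% of rows. These ratios were known when the genes were chosen, so nothing is read from the counts. For the same reason the ratios of the 4 genes are given as a description with no test. Over all 4723 rows, 0 (0%) passed an adjusted p of 0.05 in limma, 380 (8.05%) had an unadjusted p under 0.05, and the plain one-sample statistic gave 0 and 324. With the 6 slides as units and the flip pair as a replicate block, 20 rows passed in limma.

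**Figure D1:**
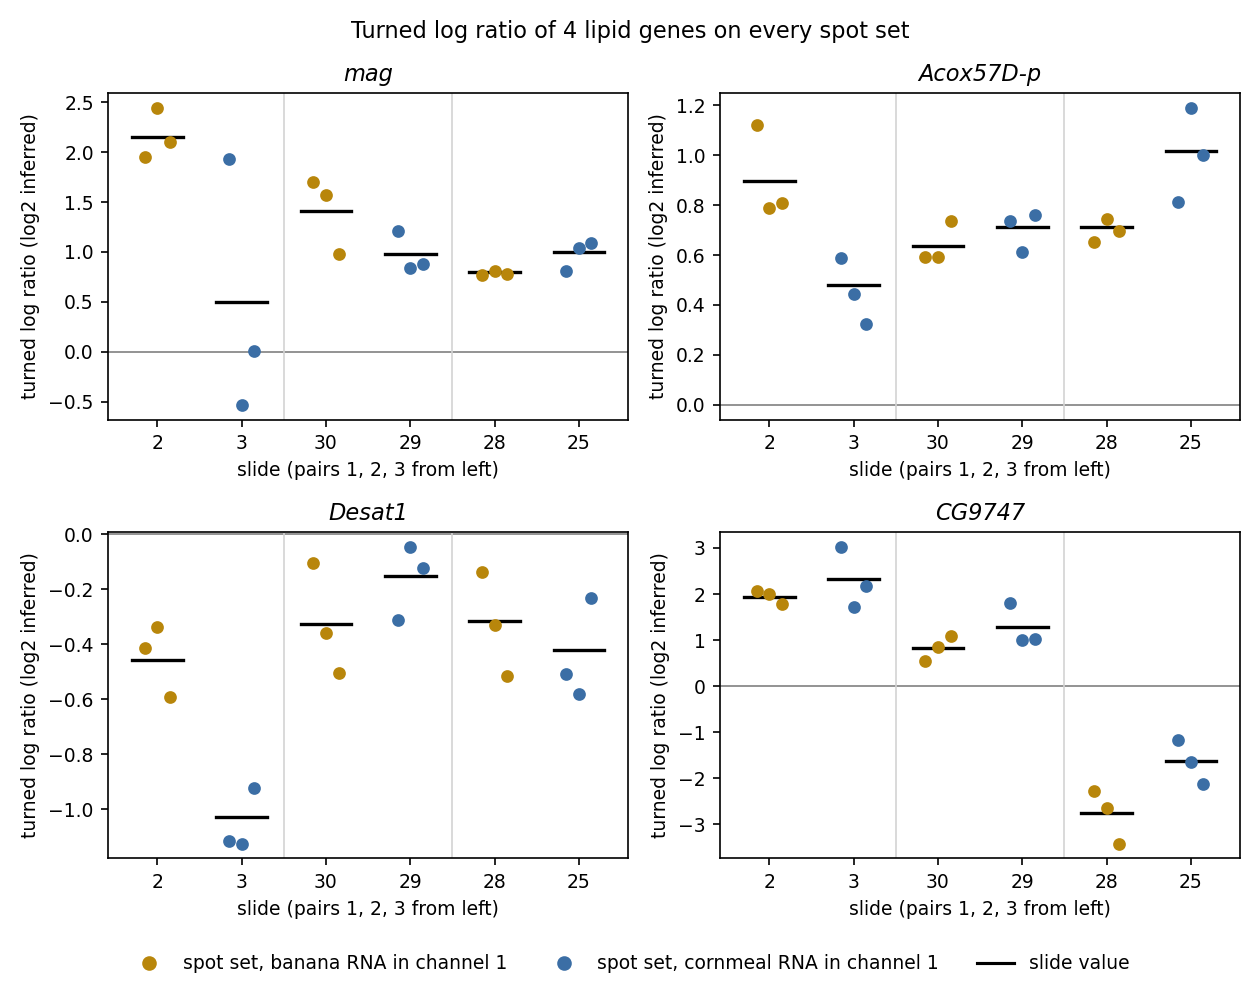
Turned log ratio (vertical axis, log2 inferred) of mag, Acox57D-p, Desat1 and CG9747 on each of 6 slides (horizontal axis, pairs 1 to 3 from the left), with vertical scales that differ between panels. Points are the 3 spot sets of a slide minus their own column median and black lines are the slide values, which are centred on the slide median. All 18 points lie above 0 for Acox57D-p and below 0 for Desat1, and 17 of 18 lie above 0 for mag.

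The lipase gene mag had slide values of 2.16 and 0.50 in pair 1 (slides 2 and 3), 1.42 and 0.98 in pair 2 (slides 30 and 29) and 0.80 and 1.00 in pair 3 (slides 28 and 25). The pair ratios were 1.33, 1.20 and 0.90, with a mean of 1.14 ± 0.221 (SD, n = 3), a 2.20-fold difference if the values are log2. Of the 4723 rows, 53 (1.12%) had a larger ratio in size than mag. For Acox57D-p it was 167 (3.54%), for Desat1 487 (10.3%) and for CG9747 781 (16.5%). These ratios were known when the genes were chosen, so nothing is read from the ranks.

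The positive value of mag on slide 3 came from 1 of its 3 spot sets. Relative to the column medians, those sets stood at 1.93, -0.53 and 0.0073, whereas the sets of slide 2 stood at 1.95, 2.44 and 2.10. The other 12 spots, those of pairs 2 and 3, lay between 0.76 and 1.70. Without spot set 1 of slide 3 the slide value was -0.25, the pair 1 ratio 0.95 and the mean 1.02, so that 5 of 6 slides were positive. The median over spot sets likewise put slide 3 at -0.46 and the mean at 0.98. The SD between the spot sets of slide 3 was 1.30 for mag. Averaged over slides it was 0.385, and 7.26% of the 3911 probes with 18 values had a larger one.

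The acyl-CoA oxidase gene Acox57D-p was the most even of the 4 genes. Its slide values were 0.90 and 0.48 in pair 1, 0.64 and 0.71 in pair 2 and 0.71 and 1.02 in pair 3. The pair ratios of 0.69, 0.67 and 0.86 gave a mean of 0.74 ± 0.106 (SD, n = 3), or 1.67-fold, and the 18 spots ranged from 0.32 to 1.19. The pair ratios spanned 0.191, against a median span of 0.423 over all rows. Replicate spots within a slide had a mean SD of 0.119, against a median of 0.155 over the probes with 18 values.

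The desaturase gene Desat1 lay on the negative side on every slide. Its slide values were -0.46 and -1.03 in pair 1, -0.33 and -0.15 in pair 2 and -0.31 and -0.42 in pair 3. The pair ratios of -0.74, -0.24 and -0.37 averaged -0.45 ± 0.261 (SD, n = 3), or 1.37-fold. All 18 spots were negative, between -1.12 and -0.046. Slide 3 stood apart from the other slides, with spot sets at -1.12, -1.12 and -0.92, and the spots of slide 29 came closest to 0.

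The second desaturase gene, CG9747, changed sign between the pairs. Its slide values were 1.94 and 2.33 in pair 1, 0.82 and 1.28 in pair 2 and -2.76 and -1.62 in pair 3, and both slides of every pair had the same sign. The 6 spots of pair 3 lay between -3.42 and -1.16, and the 12 spots of the other pairs lay between 0.55 and 3.02. The pair ratios were 2.14, 1.05 and -2.19. Their mean of 0.33 ± 2.25 (SD, n = 3) therefore describes no single pair, and it was -0.57 without pair 1, -0.028 without pair 2 and 1.59 without pair 3. The span of 4.33 between pairs was exceeded by 33 rows (0.699%), while the SD between the slides of a pair was 0.526. Replicate spots of CG9747 within a slide had a mean SD of 0.432, wider than the 0.385 of mag. Of the 3911 probes with 18 values, 5.7% had a larger one. Over all rows, 5 (0.106%) passed an adjusted p of 0.05 for a difference between pairs (limma F test) and 432 (9.15%) an unadjusted one. The count of 5 was 0 without pair 1, 49 without pair 2 and 0 without pair 3. No test is given for CG9747, whose pair values may have led to its choice, and nothing is read from the rank of its span.

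The mean of the unturned slides of a pair, in which a difference between the RNAs cancels, was tested. It is not wholly independent of the choice of genes, because slides of a pair that share a sign after turning hold a smaller component than pair ratio. This channel component averaged 0.32 ± 0.473 for mag, 0.0063 ± 0.186 for Acox57D-p, 0.084 ± 0.189 for Desat1 and -0.33 ± 0.206 for CG9747 (SD, n = 3 pairs each). None of the 4 passed in limma, with adjusted p of 0.592 for mag, 0.984 for Acox57D-p, 0.791 for Desat1 and 0.526 for CG9747. Over all rows 0 (0%) passed (16 without pair 2) and 434 (9.19%) had an unadjusted p under 0.05, CG9747 among them (unadjusted p = 0.0445). For mag the component was 0.83 in pair 1, 0.22 in pair 2 and -0.10 in pair 3.

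**Figure D2:**
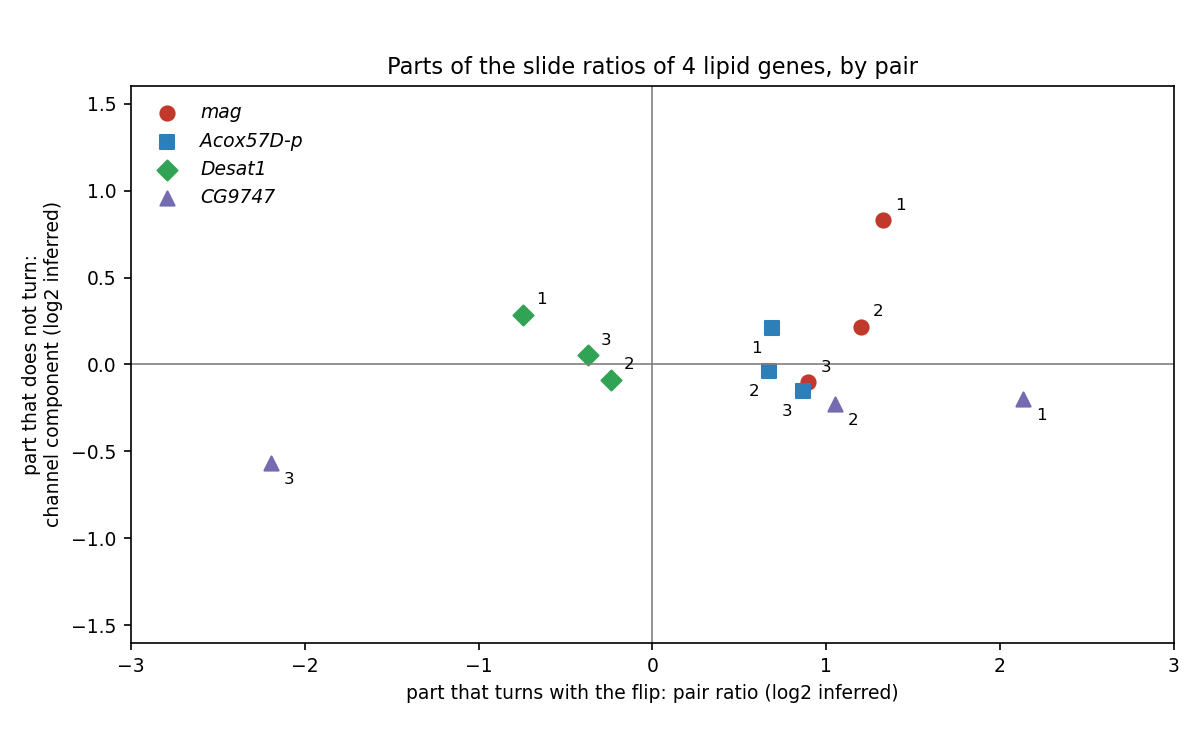
Pair ratio (horizontal axis, the part that turned with the dye flip) against channel component (vertical axis, the mean of the unturned slides) for mag, Acox57D-p, Desat1 and CG9747, both as log2 inferred, with 1 point per flip pair numbered 1 to 3. The points of CG9747 lie at 2.14, 1.05 and -2.19 on the horizontal axis and between -0.57 and -0.20 on the vertical one.

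Most measured genes of peroxisomal beta-oxidation had positive ratios, as Acox57D-p did. Their list was chosen with earlier results of these data known, so nothing is read from its counts. Of 10 such genes besides Acox57D-p, 5 were measured. Their median ratio was 0.36, against 0.00031 over all rows tested, and -0.057 if no slide is turned. Ratios were positive in all 3 pairs for 4 of them (15.3% of all rows) and negative in all 3 for 1 (15.2%). With limma, 0 of the 5 passed the adjusted threshold, and 3 had a positive ratio with an unadjusted p under 0.05 (4.4% of all rows).

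The gene ScpX, whose product resembles the peroxisomal thiolase that ends the cycle, had slide values of 0.70 and 0.37 in pair 1, 0.97 and 1.19 in pair 2 and 0.33 and 0.78 in pair 3. Its mean was 0.72 ± 0.31 (SD, n = 3; limma adjusted p = 0.461). Mfe2, the multifunctional enzyme of the middle steps, had 0.40 and 0.48, then 0.66 and 0.77, then 0.20 and 0.62 on the same slides. Its mean was 0.52 ± 0.168 (SD, n = 3; limma adjusted p = 0.461). Both were positive on 6 of 6 slides.

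The other acyl-CoA oxidase genes are outside the naming rule and were singled out with their values in view. Acox57D-d, the gene whose symbol marks it as the distal partner of Acox57D-p, had pair ratios of 0.40, 0.50 and 0.16, a mean of 0.36 ± 0.174 (SD, n = 3), and was positive on 6 of 6 slides. The predicted oxidase gene CG4586 had 0.46, 0.56 and 0.021, and the predicted oxidase gene CG17544 had -0.51, -0.13 and -0.27. The oxidase genes thus did not share a sign, with CG17544 negative on 5 of 6 slides.

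**Figure D3:**
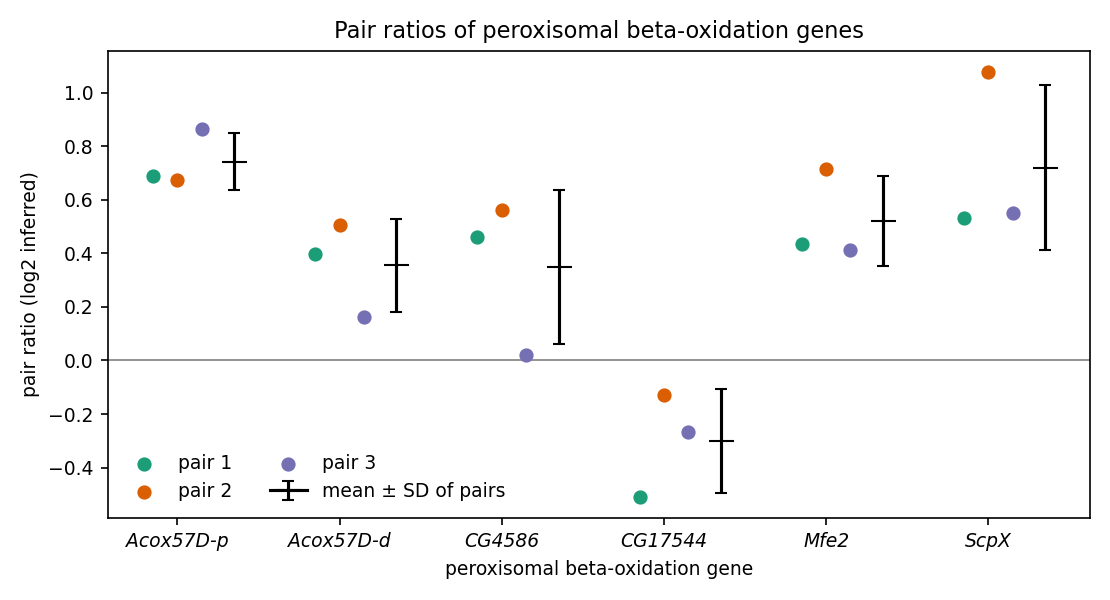
Pair ratios (vertical axis, log2 inferred) of Acox57D-p and 5 other genes of peroxisomal beta-oxidation, with 1 coloured point per flip pair and the mean ± SD of the 3 pairs beside them. Every point of CG17544 lies below 0, from -0.51 to -0.13, and every point of the other genes lies above 0.

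Among the lipase genes, 5 of the 45 listed besides mag were measured, with a median of 0.16. CG6271, a predicted pancreatic-type lipase gene, had pair ratios of 0.44, 0.24 and 1.56, a mean of 0.74 ± 0.713 (SD, n = 3; limma adjusted p = 0.651), and was positive on 6 of 6 slides. The lipase-family gene sxe2 had -0.24 ± 0.174 (SD, n = 3; limma adjusted p = 0.678) with 1 of 6 slides positive. The fat-storage lipase gene brummer (bmm), named outside the rule, had 0.16 ± 0.0737 (SD, n = 3; limma adjusted p = 0.735) with 4 of 6 slides positive. That SD leaves out the spread between slides of a pair, such as -0.10 on slide 28 and 0.53 on slide 25. Hr96, the nuclear receptor known to control mag in flies, was also named outside the rule, and its pair ratios were 0.37, 0.06 and -0.24. The ratio in pair 2 averages slides of opposite sign, at 1.38 (slide 30) and -1.27 (slide 29).

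For the desaturases, 1 of 7 listed genes besides Desat1 and CG9747 was measured. This was ifc, which encodes the sphingolipid desaturase of ceramide synthesis. It had pair ratios of -0.34, -0.22 and -0.099 and a mean of -0.22 ± 0.121 (SD, n = 3; limma adjusted p = 0.663).

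Over all 9 lists of lipid metabolism, 62 genes besides the 4 were measured of 176 listed. Their median ratio was 0.10. In all 3 pairs 21 were positive (15.3% of all rows) and 7 negative (15.2%), and 34 were mixed (3282 of all 4723 rows). The lists were chosen with earlier results of these data known, so nothing is read from these counts. With limma 0 of the 62 passed the adjusted threshold, in the blocked fit 0 of them passed, and 8 positive and 2 negative genes had an unadjusted p under 0.05 (4.4% and 3.64% of all rows). None passed for the channel component or for a difference between pairs.

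In peroxisome assembly, the import gene Pex13 had 0.35, 0.36 and 0.36 in the 3 pairs, a mean of 0.36 ± 0.0102 (SD, n = 3; limma adjusted p = 0.513). That SD leaves out the spread between slides of a pair. The slide values of Pex13 were 0.32 and 0.37 in pair 1, 0.14 and 0.58 in pair 2 and 0.28 and 0.45 in pair 3. The list of 6 measured assembly genes had a median of 0.032, and the membrane-assembly gene Pex3 had -0.25 ± 0.323. The list median was 0.072 without pair 1, 0.0056 without pair 2 and 0.0035 without pair 3. The 12 measured genes of mitochondrial beta-oxidation had a median of 0.13, and of 0.046 without pair 2. Of these genes, 5 were positive in all pairs (15.3% of all rows) and 1 was negative (15.2%). The enoyl-CoA hydratase gene Echs1 led them with 0.60 ± 0.433, and Had2 had 0.42 ± 0.327 (SD, n = 3 each; limma adjusted p of 0.592 and 0.634).

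The 7 measured genes of fatty acid synthesis and elongation (median 0.055) all had mixed signs over the pairs, as did 3282 of all 4723 rows. The median was 0.20 without pair 1, -0.37 without pair 2 and 0.29 without pair 3. bond, an elongase gene, had -0.77 in pair 1, 3.52 in pair 2 and -0.34 in pair 3, and its family member CG31523 had -0.26, 1.85 and -0.12. Some of these average slides of opposite sign. In pair 3 (slides 28 and 25) bond had -1.76 and 1.07, and CG31523 had -1.34 and 1.10. In pair 1 (slides 2 and 3) CG31523 had 0.32 and -0.84. The large values of bond and CG31523 were in pair 2, whereas CG9747 turned in pair 3. Some other listed genes also turned negative in pair 3 only. Among them, named outside the rule, CG31522 of this list had 0.19, 1.32 and -0.93. The mitochondrial beta-oxidation gene whd, also outside the rule, had 0.26, 1.05 and -0.54. The difference of bond between pairs had a limma F adjusted p of 0.148, and that of CG31523 one of 0.764.

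Storage, transport and regulatory genes had medians of 0.084 over 11 genes, 0.20 over 7 and 0.12 over 8. The transport median was 0.065 without pair 1 and 0.017 with the median over spot sets. The regulator median was -0.067 without pair 1, -0.048 without pair 2 and 0.068 without pair 3, so its sign depended on pairs 1 and 2. The lipid droplet gene Lsd-1, a perilipin, had -0.32 ± 0.11 and was positive on 0 of 6 slides, and Pcyt2 had 0.27 ± 0.0912. The lipid transfer genes Mtp and Apoltp had 0.42 ± 0.261 and 0.26 ± 0.0549. Among regulators, AkhR, the receptor gene for adipokinetic hormone, had 0.57 ± 0.143, and the sugar-sensing factor gene Mondo -0.40 ± 0.204. These 6 values are means ± SD of 3 pairs, with limma adjusted p from 0.411 (AkhR) to 0.618 (Pcyt2). The SDs leave out the spread between slides of a pair. AkhR had 0.22, 0.12 and 0.052 on slides 2, 30 and 28, with banana RNA in channel 1. On slides 3, 29 and 25 it had 1.08, 0.69 and 1.25. Its channel component was -0.44 ± 0.157 (SD, n = 3; limma adjusted p = 0.526). Apoltp ran from -0.21 (slide 30) to 0.74 (slide 29), with a channel component of -0.26 ± 0.215.

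**Figure D4:**
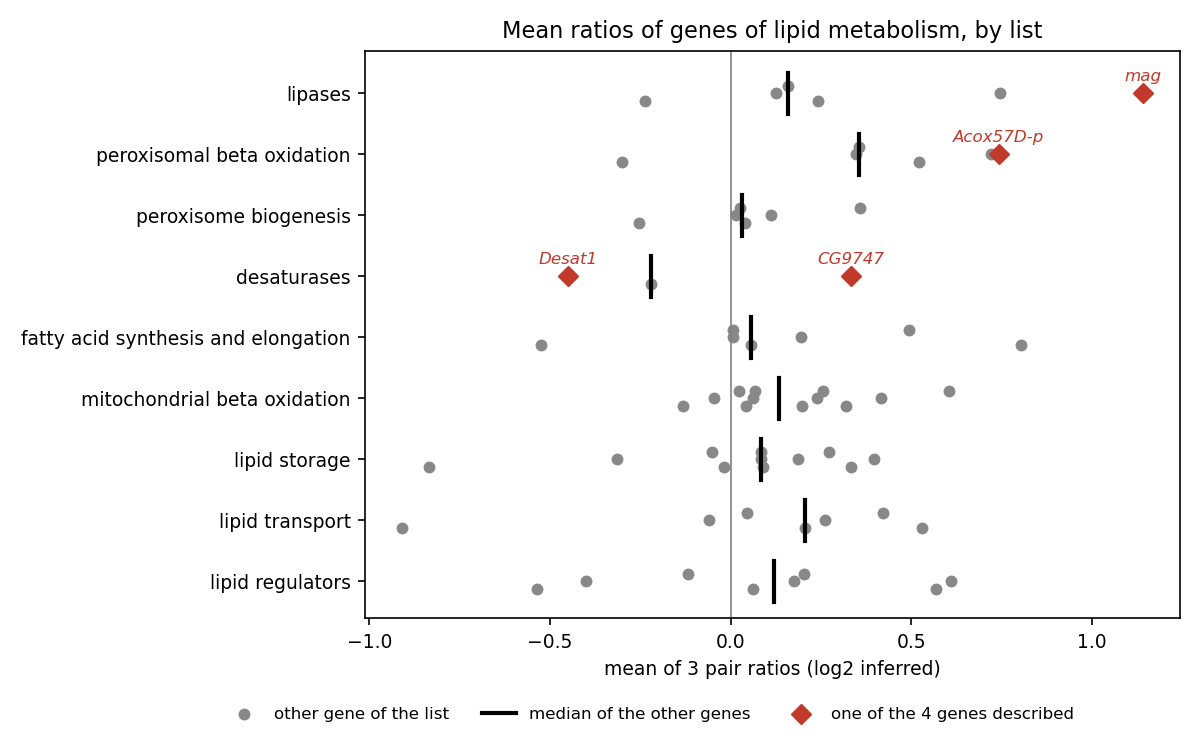
Mean of 3 pair ratios (horizontal axis, log2 inferred) of each measured gene in 9 lists of lipid metabolism (vertical axis). Grey points are genes besides the 4 described, black bars their median in the list, and red diamonds mag, Acox57D-p, Desat1 and CG9747. mag, at 1.14, lies to the right of all grey points.

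The genes most like each of the 4 were found by the root mean square difference over the 6 turned slides, among 3118 named genes with all 18 values. For mag these were JhI-26, a juvenile hormone-inducible gene, at a difference of 0.596, ScpX at 0.665 and CG10570 at 0.70. JhI-26 had slide values of 1.62 and 1.06 in pair 1, 0.78 and 1.05 in pair 2 and -0.22 and 0.74 in pair 3. Acox57D-p was nearest to CG8888 (0.225), the paxillin gene Pax (0.27) and CG17027 (0.311), which averaged 0.60, 0.64 and 0.65. Desat1 was nearest to l(2)dtl (0.192), the glucuronyltransferase gene GlcAT-P (0.206) and CG6304 (0.228), which averaged -0.47, -0.49 and -0.39 and were negative on 6 of 6 slides.

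CG9747 was nearest to CG13847 (0.545), CG11409 (0.635) and CG8886 (0.635), a gene that the annotation lists under a lethal-locus symbol, and all of these shared its turn of sign. CG13847 had pair ratios of 1.98, 1.69 and -1.83. CG11409 had 2.10, 1.05 and -1.76, and CG8886 had 2.41, 1.84 and -2.58. They were picked for this likeness, so their turn of sign is a description.

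Markers of tissues that the RNA could hold were checked because the labels name none, and ratios do not show whether a marker is absent. Of 15 gut markers 6 were measured, with ratios from -0.88 to 1.12 and a median of -0.14. Of 9 fat body markers 3 were measured, from -0.91 to 0.57 (median 0.26). The 7 of 15 measured muscle markers ran from 0.019 to 0.65 (median 0.39), and the 2 of 6 oenocyte markers were -0.15 and 0.80. Of 10 male markers 2 were measured, at -0.27 and 0.16, and of 11 female markers 1, at 0.057. The 4 measured of 14 cuticle and epidermis markers ran from -0.23 to 1.11. Their medians in pairs 1, 2 and 3 were 0.74, 1.26 and -0.37, and 1 of the 4 was positive and 1 negative in all 3 pairs. In the same order of pairs the medians were 0.64, 0.31 and 0.53 for muscle, where 4 of 7 markers were positive in all pairs, and 0.21, 0.26 and 0.32 for fat body, where 2 of 3 were. For gut the medians were -0.34, 0.0706 and -0.15, and 1 of the 6 markers was positive and 3 were negative in all pairs. For oenocytes the medians were -0.58, 1.82 and -0.26, and 0 of the 2 markers kept 1 sign over the pairs. Over all rows tested, 15.3% were positive and 15.2% negative in all 3 pairs. The part of these tissues in the ratios of the 4 genes was not tested.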

How the data were processed

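The deposited table held log ratios of the 2 channels for 18 spot sets over 5620 probes. The authors' scanning, background correction and normalisation are not given in the sources used here. The deposited values were taken as log2 because their range of -16.02 to 13.21 goes beyond 11.09, which is ln of the largest 16-bit signal. Only 5 of 90442 values lie beyond that bound, and 1 of them also lies beyond 16, the bound for log2, so the base remains an inference. Channel intensities were not used here, so no filter on dim spots could be applied. Precision is limited by the number of arrays.

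Probes were named from the platform annotation, which lists 1 gene for 4955 probes, several for 85 and none for 580. Of the 4955 probes, 4876 were found in the Release 6 gene table. No build is named for the probes, so no coordinates are given. Values of the 3 spot sets were averaged per slide, the slide median was subtracted, probes of a gene were averaged, slides with cornmeal RNA in channel 1 were turned in sign, and the slides of a flip pair were averaged. The pairing comes from the labels, which name each slide's flip partner. For 4723 rows (4144 genes with a name, 579 probes without one), limma 3.58.1 (lmFit, eBayes; R 4.3.3) tested pair ratios against 0, two-sided, with Benjamini-Hochberg adjustment at 0.05. The channel component was tested likewise on slides that were not turned. Differences between pairs used a limma F test on 6 slides with terms for pair and orientation. The tests of the ratio, the channel component and the difference between pairs were also run on simulated slides. Values there were drawn independently for each slide, with no spread shared within a pair beyond the added effects. The simulation therefore does not show how the tests behave on slides such as these. Alternatives were the median over spot sets, other centring, complete rows, slides as units, unturned slides and leaving out each pair. Plots were made in Python 3.11.15 (matplotlib 3.10.9).

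The 4 genes, the gene lists and the tests were chosen with earlier results of these data known. The diet ratios and pair ratios of the 4 genes are therefore given without a test. Besides the 4 genes, the rule for named genes took, for each of them, the 3 genes with the smallest root mean square difference over 6 slides among genes with all 18 values, and from each list the 2 genes with the smallest unadjusted p. Genes named outside that rule are said to be so.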

Additional observations from a re-analysis of the deposited data

Results flagged for a closer look

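CG9747 was singled out because all 12 spots of pairs 1 and 2 were positive and all 6 spots of pair 3 were negative, with a span of 4.33 between its pair ratios. The difference was not tested, since these values may have led to its choice. CG8886, named for its likeness to CG9747, had a span of 4.99, given without a test because the gene was picked for that likeness.

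In 40 groups of 6 slides or 9 spot sets, 4 held a highest or lowest value whose gap to the nearest other, over the range of the group, was above Dixon's 95% critical value. That critical value assumes independent values. Spot sets of a slide and slides of a pair are repeat measures, so no chance rate is given for the groups flagged. Desat1 stood at -1.03 on slide 3, the lowest of its 6 slides. Pex3 stood at -1.21 on the same slide. CG17027, named for its likeness to Acox57D-p, stood at 0.0454 on slide 29, below its other slides. Spot set 1 of slide 2 stood at 1.12 for Acox57D-p, above the other spot sets with banana RNA in channel 1.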

How the results depend on the processing

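The mean ratios of mag, Acox57D-p and Desat1 moved by less than the SD between pairs under other processing. This was the median over spot sets, no centring, or each spot set centred. For CG9747 the SD of 2.25 exceeds the mean of 0.33, so the same comparison could hardly fail. Its mean was 0.22, 0.32 and 0.32 in that order. Each gene had 1 probe, so probes could not be compared. When a pair was left out the mean ran from 1.05 to 1.26 for mag, from 0.68 to 0.78 for Acox57D-p, from -0.55 to -0.30 for Desat1 and from -0.57 to 1.59 for CG9747, whose sign turned without pair 1 and without pair 2 (-0.028). Spot set 1 of slide 3 was left out after the data were seen. Without it the means of mag, Acox57D-p and Desat1 moved by less than the SD, although the sign of mag on slide 3 turned. The mean of CG9747 was then 0.27. With no slide turned, as if the authors had already turned the deposited values, the mean was 0.32 for mag, 0.0063 for Acox57D-p, 0.084 for Desat1 and -0.33 for CG9747, with the sign opposite to that of the turned values for Desat1 and CG9747. List medians then were -0.12 for lipases, -0.057 for peroxisomal beta-oxidation, -0.021 for desaturases, -0.13 for mitochondrial beta-oxidation, -0.0699 for storage, -0.22 for transport and -0.21 for regulators. Rows called for the diet ratio numbered 20 with slides as units and the flip pair as a replicate block (correlation within pairs -0.0895) and 1 with no replicate block. Rows called for the channel component numbered 2 with the median over spot sets, 2 without centring and 0 to 16 when a pair was left out, 16 of them without pair 2. Rows called for a difference between pairs numbered 26 with the median, 12 without centring, 108 among rows with all 18 values and 0 to 49 when a pair was left out, with 49 without pair 2 and 0 without pair 1 or 3. The channel component of Acox57D-p was -0.039 with the median, -0.043 without centring and ran from -0.095 (without pair 1) to 0.0863 (without pair 3) when a pair was left out, and that of Desat1 ran from -0.017 (without pair 1) to 0.17 (without pair 2). No channel component of the 4 genes passed under these alternatives (limma adjusted p from 0.285 to 0.999). The cause of these changes was not tested. How far the spots lay above background is unknown.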
